A study of Saccharomyces cerevisiae with 6 samples.

Results

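The comparison described here set active RNAP II against total RNAP II in yeast cells taken 60 min after release from alpha factor, when most cells of the culture were in G2/M. It used 2 of the 6 deposited samples, genomic run-on (GRO) and RNAp ChIP at 60 min, with 3 replicate hybridizations each. Members were the array spots with a value in at least 2 of the 3 replicates of both assays, a condition met by 5826 of 6144 spots. The 318 others were left out. All 6 values were present at 5536 spots, 5 values at 236 and 4 values at 54.

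The cells were wild type *Saccharomyces cerevisiae* of strain BY4741 carrying the plasmid pRS316, arrested in G1 with the mating pheromone alpha factor, washed and released. Samples were taken at 0, 30 and 60 min, so the groups differ in time after release and in assay, and share the strain and the arrest. The arrest itself was common to all groups, and a synchronized culture is a mixture that is enriched in a stage rather than pure. For RNAp ChIP the titles of 2 samples exchange 30 and 60 min relative to their descriptions and files. The descriptions were followed, and the results with the titles are given where the choice moved them.

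RNAP II that has initiated can transcribe, pause or backtrack on the gene. In GRO, sarkosyl-treated cells are given radioactive UTP, and only polymerases able to resume elongation label their transcripts. ChIP with an antibody against Rpb3, a subunit of the core enzyme, recovers DNA bound by RNAP II whether or not it elongates. A gene can therefore rank high in occupancy and low in run-on, as where polymerases are arrested and need a factor such as TFIIS to resume, or the reverse. Both materials were hybridized to nylon filters carrying whole ORFs. The files name a spot by its array position and do not pair positions with genes, so no gene, gene group or sequence is given. Any spots without an ORF are included.

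At each spot the value of GRO was the log2 ratio of run-on RNA to the genomic DNA signal of that filter, and that of RNAp ChIP was log2 of immunoprecipitated DNA (IP) over whole cell extract (WCE) of the same replicate. Each hybridization was then scaled to z-scores over the 5826 spots, so a value of 1 lies 1 SD above the mean spot of its own assay. A z-score difference above 0 means that a spot had a higher z-score in active than in total RNAP II. It is not a difference of ranks and depends on how each assay is scaled. The z-score difference does not measure the share of polymerases that were active.

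The median spot intensity was 93.1 to 197 for run-on RNA, 65.2 to 166 for genomic DNA, 208 to 556 for IP and 304 to 616 for WCE. Between 112 and 315 spots per hybridization were at 0 and were taken as missing. Log2 ratios spread more in GRO than in RNAp ChIP, with an SD across spots of 1.43 to 1.52 against 0.866 to 1.07. Across spots, which are not independent replicates, GRO replicates correlated at r = 0.797 to 0.845 and RNAp ChIP replicates at 0.741 to 0.854. A GRO replicate against an RNAp ChIP replicate gave r = 0.406 to 0.512. The means of 3 gave r = 0.509 and Spearman's rho = 0.555 over 5826 spots.

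The z-scores of active and total RNAP II differed at 1319 of the 5826 spots, or 22.6% (adjusted p below 0.05, limma with Benjamini-Hochberg adjustment). GRO lay above RNAp ChIP at 658 spots (11.3%) and below it at 661 (11.3%). The median z-score difference was 0.98 among the spots above (interquartile range 0.78 to 1.30) and -1.11 among the spots below (-1.54 to -0.86). At all 1319 spots the GRO and RNAp ChIP replicates did not overlap, which also held at 1340 spots that were not called, together 45.6% of those tested. The median standard error of a difference was 0.22, and the median SD between replicates was 0.22 in GRO and 0.26 in RNAp ChIP, all in z-score units.

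**Figure D1:**
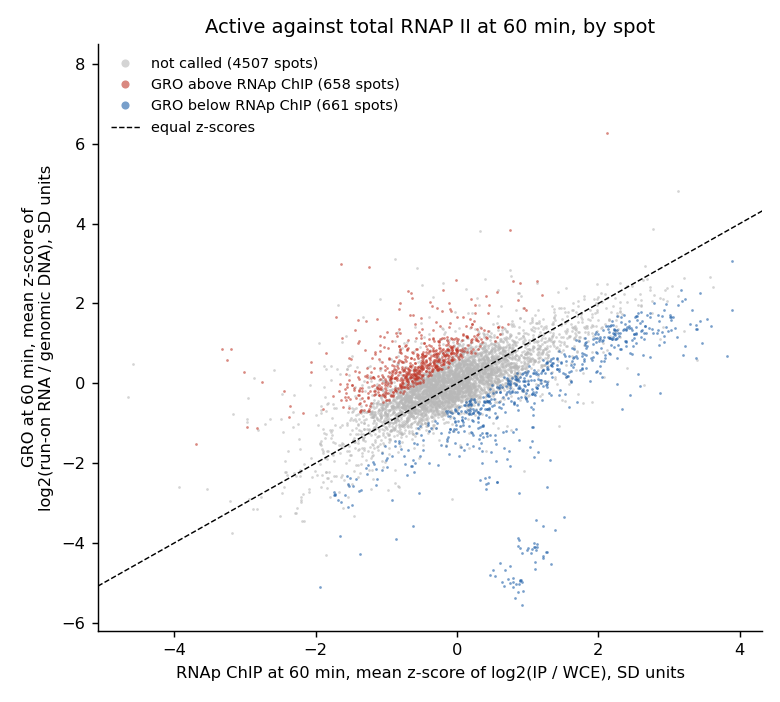
Mean z-score of GRO (y axis) against mean z-score of RNAp ChIP (x axis) at 60 min, in SD units over spots. Each point is 1 of 5826 spots and the dashed line marks equal z-scores. The 658 red spots lie above the line, the 661 blue spots below it, and 49 of the blue spots form a detached group with GRO z-scores between -5.55 and -3.35.

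The count fell when any single hybridization was left out, which also leaves fewer values to the test. It was 943 without replicate 1 of GRO and 1078 without replicate 1 of RNAp ChIP. Without replicate 2 or 3 of GRO the count was 689 or 653, and without replicate 2 or 3 of RNAp ChIP it was 771 or 828. All 658 higher and 661 lower calls kept their sign in each of these fits, which share most of their values. As the replicates of the assays did not overlap at any called spot, leaving 1 out could not reverse a sign, so this tests nothing. With run-on RNA set directly against IP, without denominators, 788 spots were called. When z-scores were built from the median and the median absolute deviation, GRO was higher at 478 spots and lower at 792, so that 37.6% rather than 49.9% of the calls were higher. That scaling moved the median difference over all spots from 0.06 to -0.07, and median-centred log2 ratios moved it to -0.05.

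Most differences were of moderate size. A z-score difference of at least 1 in either direction was found at 973 spots, of which 718 were called (320 higher and 398 lower). At least 2 was reached by 49 of the higher and 101 of the lower calls. Conversely, the 95% interval of the difference lay within -1 and 1 at 2882 spots (49.5%), and within -0.5 and 0.5 at 279. At 1684 spots the difference was neither called nor bounded by 1 SD, so a difference of that size can neither be called nor set aside there.

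The differences recurred between replicates. The difference computed from replicate 1 of both assays correlated with that from replicate 2 at r = 0.61 across spots, with that from replicate 3 at 0.61, and replicates 2 and 3 gave 0.73. No hybridization is shared between these pairs, although all use the same spots. The mean of the 3 values was 0.648.

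The called spots were grouped by their level in each assay, with low and high set at 0.5 SD below and above the mean spot. The calls and the levels rest on the same values, so these counts describe the calls and test nothing. Among the 658 spots with GRO above RNAp ChIP, the most frequent class was middle GRO with low RNAp ChIP (260 spots), followed by high GRO with middle RNAp ChIP (214) and high GRO with low RNAp ChIP (90). The median GRO z-score of all 658 was 0.47 and the median RNAp ChIP z-score -0.58. A high run-on signal with low occupancy was uncommon, with 120 spots in all.

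In the class with high GRO and low RNAp ChIP the median difference was 1.76, from a median GRO z-score of 0.85 and a median RNAp ChIP z-score of -0.80. Its spots were dim. The median intensity was 67.4 for run-on RNA, 21.9 for genomic DNA, 74.7 for IP and 145 for WCE, and 73 of the 90 had a denominator among the dimmest 25% in at least 1 assay. The part of signal strength in these calls was not tested.

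Among the 661 spots with GRO below RNAp ChIP, 197 were high in both assays, 165 were middle in GRO and high in RNAp ChIP, 128 were low in GRO and middle in RNAp ChIP, 88 were low in GRO and high in RNAp ChIP, and 60 were low in both. The median GRO z-score of all 661 was -0.23 and the median RNAp ChIP z-score 0.96. The classes differed in how far they depended on the scale.

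The 197 spots high in both assays had a median GRO z-score of 1.17 against 2.29 in RNAp ChIP. Their median run-on intensity was 609 and their median IP intensity 2480, against 163 and 1133 over all lower calls. On median-centred log2 ratios 188 of the 197 were still below RNAp ChIP, with a median difference of -0.55, but only 39 were called. With RNAp ChIP multiplied by the slope of GRO on RNAp ChIP, as in the linear model of the study, the median difference of this class was -0.03, with 9 spots called lower and 9 called higher. Under that scaling 75 of the 165 spots with middle GRO and high RNAp ChIP were called, and their median difference was -0.53 against -1.03. In the class low in GRO and high in RNAp ChIP 87 of 88 spots were called, in the class low in GRO and middle in RNAp ChIP 128 of 128, and in the class low in both 60 of 60.

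Among the higher calls, median-centred log2 ratios kept 203 of 214 spots with high GRO and middle RNAp ChIP. They kept 83 of 90 with high GRO and low RNAp ChIP. Of the 260 with middle GRO and low RNAp ChIP they kept 113, and of the 21 low in both assays 1. Scaling RNAp ChIP by the slope kept 211, 86, 152 and 0 spots of these classes in turn. Over all spots the slope scaling called 1743. Of the first 1319, 896 were among them in the same direction and 9 in the opposite direction. None of the 1319 spots was called in the opposite direction on log2 ratios, with median absolute deviations or with quantile normalization. All 3 of these scalings called 836 spots in the same direction as the z-scores (63.4%), 394 higher and 442 lower.

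The largest differences came from a detached group of 49 spots, set apart after the values were seen as those with a difference below -4. The next spot was at -3.86 and the nearest member of the group at -4.54. In the 49 spots the GRO z-score ranged from -5.55 to -3.35 with a median of -4.50, while the RNAp ChIP z-score stayed between 0.47 and 1.51 with a median of 0.92. All 49 were called, with no overlap between the replicates of the assays. Both follow from choosing spots by the size of the difference and test nothing. Over all tested spots 22.6% were called and 45.6% had no overlap.

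These spots carried much DNA signal, and their run-on signal was small beside it. Their genomic DNA intensity had a median of 5538 (range 109 to 10156), and 47 of the 49 were in the brightest 2% by genomic DNA. WCE was as bright, with a median of 6980, and the IP median was 10338 (range 449 to 17421). On the log2 scale genomic DNA lay a median of 5.83 above the median of all spots (range 0.16 to 6.70). Run-on RNA had a median of 79.6, with the dimmest spot at 4.95 and the brightest at 260. For comparison, the dimmest quartile of all tested spots by run-on RNA had a median of 37.3 and the next quartile 93.5. On the filter, 16 of the 49 sat at position 16 of a block and 4 at position 2. Of the 5826 spots tested, 367 were at position 16 and 369 at position 2. The group was present at the other times as well, with differences of -7.12 to -4.47 at 30 min and of -4.88 to -0.43 at 0 min at the 48 spots measured there.

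The 40 remaining spots with low GRO and high RNAp ChIP had differences of -3.86 to -1.07, with a median of -2.05. Over all 116 spots in the brightest 2% of genomic DNA, 92 were called lower and 0 higher, with a median GRO z-score of -2.51 and a median RNAp ChIP z-score of 0.52. Without those 116 spots 1104 were called, and the mean correlation of the differences between replicate pairs fell from 0.648 to 0.5385. What the bright spots carry is not stated in the files used here, and the part of genomic DNA brightness in their difference was not tested.

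The 4 named spots were the largest and smallest differences among the calls with all 6 values present, no overlap between the assays and neither denominator dim. Spot R12 - C24 : 5 had a far higher z-score in run-on than in occupancy. Its run-on intensities were 921, 877 and 2468 over genomic DNA of 66.1, 79.0 and 205, which gave GRO z-scores of 2.18, 1.96 and 2.29. The IP intensities were 345, 616 and 1108 over WCE of 928, 890 and 1894, and the RNAp ChIP z-scores were -0.90, -0.22 and -0.80. As the rule required, every GRO value lay above every RNAp ChIP value. The mean difference was 2.78 (standard error 0.23, 95% interval 2.25 to 3.32, adjusted p = 0.000644, limma).

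At R4 - C14 : 11 the GRO z-scores were 0.47, 1.47 and 1.24 and the RNAp ChIP z-scores -1.35, -1.58 and -1.22. Run-on RNA read 1125, 2184 and 2965 over genomic DNA of 463, 330 and 690, and IP was 566, 456 and 1025 over WCE of 2125, 1491 and 2298. The difference was 2.44 (standard error 0.28, adjusted p = 0.00297, limma). All 3 occupancy values were low, and GRO replicate 1 stayed under the mark of 0.5 for a high level while replicates 2 and 3 passed it. This spot lay at the 97.7th percentile of genomic DNA brightness.

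The lower pair belonged to the detached group. Spot R1 - C23 : 4 had GRO z-scores of -5.12, -4.63 and -6.90, from run-on intensities of 9.07, 8.03 and 3.02 over genomic DNA of 1107, 736 and 2226. Its RNAp ChIP z-scores were 0.64, 1.01 and 1.11, and the difference was -6.47 (standard error 0.55, adjusted p = 0.000868, limma). Run-on RNA was close to 0 in all 3 replicates, whereas IP exceeded WCE in all 3. The study's background threshold was not applied, so these run-on values are not shown to lie above background. The direction rests on all 3 replicates, but the size of the difference, here and at the next spot, cannot be taken as exact.

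Spot R3 - C10 : 15 gave GRO z-scores of -4.82, -5.44 and -5.91 and RNAp ChIP z-scores of 0.56, 0.63 and 1.26. Its run-on intensities were 22.1, 6.93 and 7.90 and its genomic DNA 1989, 1493 and 2179, with IP at 4540, 3793 and 4331. The difference was -6.21 (standard error 0.32, adjusted p = 0.000127, limma). Both lower spots were thus nearly silent in run-on and above the mean spot in occupancy, and both lay in the brightest 2% of genomic DNA.

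**Figure D2:**
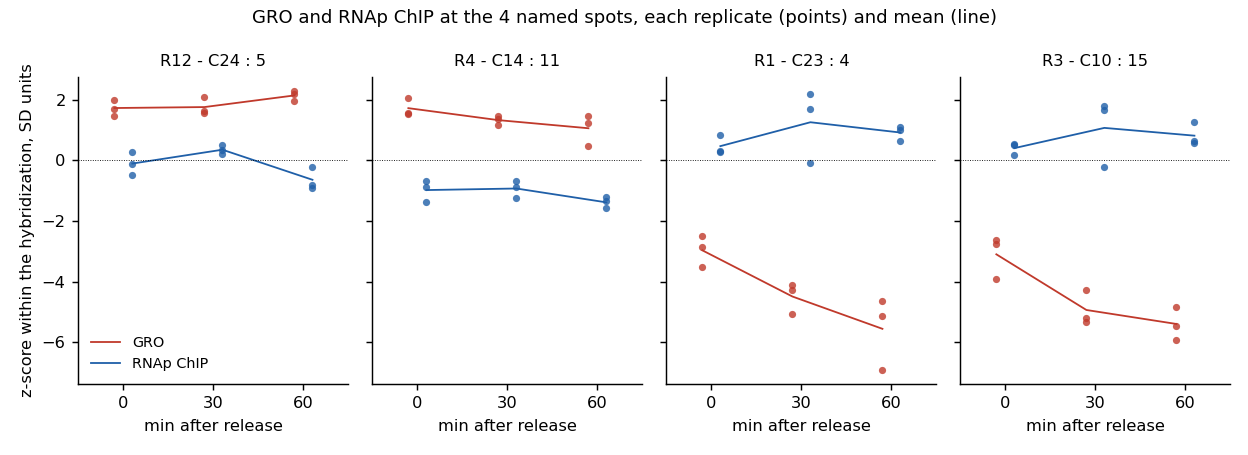
z-scores of GRO (red) and RNAp ChIP (blue) in SD units at the 4 named spots, at 0, 30 and 60 min after release. Points are the 3 replicates and lines join their means. The first pair of panels has GRO above RNAp ChIP at 60 min by 2.78 and 2.44, the second pair has it below with differences of -6.47 and -6.21, and the order of the assays is the same at 0 and 30 min.

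The 4 spots kept the same order of the assays at the other times. Their mean differences at 0 min were 1.83, 2.70, -3.43 and -3.50, in the order in which they were described, and at 30 min they were 1.41, 2.25, -5.74 and -6.00. At R1 - C23 : 4 and R3 - C10 : 15 replicate 2 of RNAp ChIP at 30 min stood below the others, with z-scores of -0.09 and -0.23 against 1.66 to 2.17.

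Calls were unevenly spread over the range of intensity. In the dimmest quartile of spots by genomic DNA 19.8% were called higher and 4.88% lower, and in the brightest quartile 3.16% were called higher and 20.4% lower. Across the 4 quartiles the share called higher fell from 19.8% over 13.9% and 8.31% to 3.16%. By IP the shares called higher fell from 21.8% to 1.85%, and the shares called lower rose from 2.68% to 30.1%. Run-on RNA showed less of this, with 11.2% and 8.30% higher and 10.8% and 18.4% lower in the dimmest and brightest quartiles.

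Genomic DNA is the denominator of GRO and IP the numerator of RNAp ChIP, so each shares its measurement with the difference. Across the 5826 spots the difference correlated with log2 genomic DNA at r = -0.50, with IP at -0.54, with WCE at -0.35 and with run-on RNA at -0.05. The GRO z-score alone correlated with genomic DNA at -0.46, and the RNAp ChIP z-score at 0.03. Signal intensity thus moved with the calls, and its part in them was not tested beyond the alternative settings given here.

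**Figure D3:**
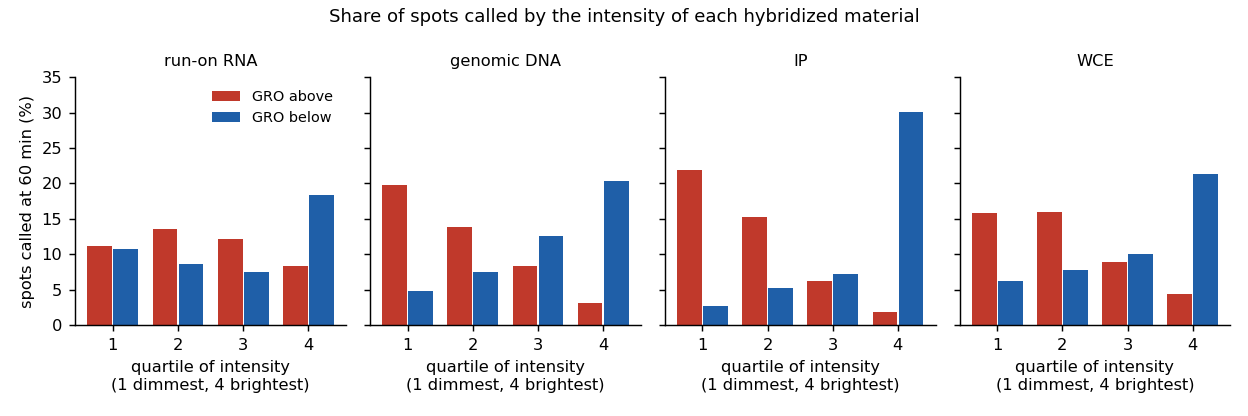
Percentage of spots called at 60 min (y axis, from 0) with GRO above (red) or below (blue) RNAp ChIP, in quartiles of the intensity of run-on RNA, genomic DNA, IP and WCE (x axis, 1 dimmest to 4 brightest). By IP the red bars fall from 21.8% to 1.85% and the blue bars rise from 2.68% to 30.1%.

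In the called spots the materials differed as follows. Spots with GRO above RNAp ChIP had a median IP intensity of 108, 152 and 357 in replicates 1, 2 and 3, against 785, 939 and 1944 in spots with GRO below it and 226, 292 and 583 in spots that were not called. For genomic DNA the medians were 38.6, 42.9 and 114 in the higher calls and 112, 127 and 257 in the lower calls. Run-on RNA stood closer together, at 85.6, 93.7 and 216 in the higher and 145, 137 and 242 in the lower calls. The higher calls were therefore dimmer than the lower calls in these 3 materials, and least so in run-on RNA.

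When run-on RNA was set directly against IP, 213 of the 658 higher and 263 of the 661 lower calls were called in the same direction and 1 in the opposite direction. The sign of the difference was the same at 642 and 621 of them. The denominators set against each other in the same way, genomic DNA against WCE, gave 3 called spots with limma (555 at an unadjusted p under 0.05). That denominator difference had an SD over spots of 0.39 and a median standard error of 0.20. Across spots it correlated with the difference of the assays at r = -0.37. The part of the denominators in the calls was not tested. After a loess trend on the denominator was removed from each hybridization, 932 spots were called. Of the first 1319, 749 were called in the same direction and 12 in the opposite direction.

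The position on the filter also moved with the calls. Within a block of 16 positions, the share called higher ran from 4.76% at position 7 to 21.4% at position 15, and the share called lower from 4.13% at position 9 to 21.4% at position 2. By row of the array, between 6.06% and 17.4% of spots were called higher. With the median of each position removed 1181 spots were called, and 1025 of the first 1319 were among them in the same direction. With the median of each of the 384 blocks removed 1701 were called, and 1060 were shared.

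A core of 193 spots was called in the same direction under all 24 alternatives in which it could be tested, the exchange of sample titles aside. These were 92 with GRO above and 101 with GRO below RNAp ChIP. The 92 had a median difference of 1.38, with GRO at 0.83 and RNAp ChIP at -0.63, and 31 of them were dim. The 101 had a median difference of -2.19, with GRO at -1.78 and RNAp ChIP at 0.80, and 32 of them were in the brightest 2% of genomic DNA. Of the detached group 30 spots belonged to the core, and of the 197 spots high in both assays 6 did.

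The difference at 60 min was then set against that at the other times, over the 5642 spots measured at all 3. Of these 1269 were among the 60 min calls, 622 higher and 647 lower. The hybridizations at 30 min are not shared with those at 60 min. At 30 min the 622 spots had a median difference of 0.74 and 574 of them (92.3%) were above 0, where over all 5642 spots 53.1% were. The 647 spots had a median of -0.84 and 615 (95.1%) were below 0, where over all 5642 spots 46.9% were.

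At 30 min 1532 spots were called, or 27.2% of those tested. Of the 60 min calls 718 were called in the same direction at 30 min, which is 56.6% of the 60 min calls and 46.9% of the 30 min calls. Another 4 were called in the opposite direction and 547 were not called at 30 min. A spot called at 1 time and not at the other is not shown to differ between them. Across all 5642 spots the differences at 30 and 60 min correlated at r = 0.76.

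At 0 min 1 GRO replicate had used the same filter, and the same genomic DNA hybridization, as 1 replicate at 60 min. Without it the 60 min calls had median differences of 0.84 and -0.96 at 0 min, with 568 of 622 above 0 and 609 of 647 below 0. Over all 5642 spots 49.6% were then above 0 and 50.4% below. The class low in GRO and high in RNAp ChIP had a median difference of -4.82 at 60 min and -5.00 at 30 min. At 30 min 46.9% of all 5642 spots lay below 0, and all 84 spots of this class measured there did. At 0 min its median was smaller in size, at -3.19, with the replicate on the shared filter included.

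**Figure D4:**
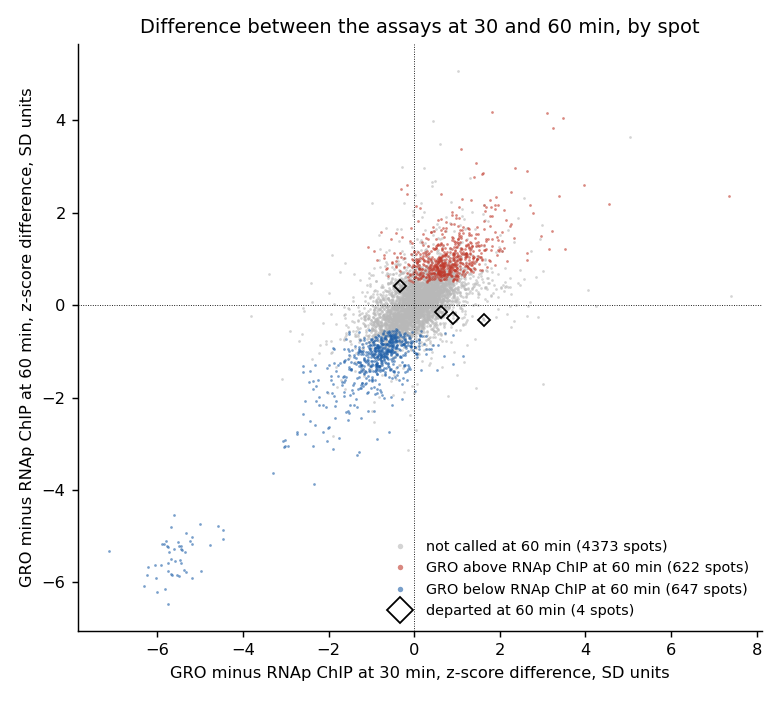
GRO minus RNAp ChIP at 60 min (y axis) against that at 30 min (x axis), as z-score differences in SD units at 5642 spots. Red and blue are the 622 higher and 647 lower calls of 60 min, and diamonds mark the 4 spots whose difference departed at 60 min. Most red spots (574) lie to the right of 0, most blue spots (615) to the left, and the diamonds lie near 0 on the y axis.

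Whether 60 min differed from the earlier times was tested at each spot in 1 fit of 18 values. The quantity was the difference at 60 min minus the mean of the differences at 0 and 30 min. The fit took the 18 values as independent. Replicate 1 of GRO at 0 and at 30 min shared 1 genomic DNA hybridization, however. So did replicate 3 of GRO at 0 min and replicate 2 at 60 min. The methods describe 3 experiments with samples taken at 0, 30 and 60 min, so values of different times may also share a culture. Apart from the replicate block among the alternatives, how far such sharing moved the p-values and intervals was not tested. A departure was called at 4 of 5642 spots (0.0709%), 1 upward and 3 downward (limma), and 648 spots (11.5%) had an unadjusted p under 0.05. The median standard error was 0.30. In this fit the 60 min values too were scaled over the 5642 spots. A departure therefore differs slightly from what the printed 60 min differences, scaled over 5826 spots, would give. The interval of the departure lay within -1 and 1 at 2979 spots (52.8%), and at 614 (48.4%) of the 1269 spots called at 60 min. At the remainder the interval reached 1 SD or more in at least 1 direction, so a departure of at least that size was not set aside. The count was 0 without replicate 2 or 3 of GRO or replicate 3 of RNAp ChIP, 2 without replicate 2 and 12 without replicate 1 of RNAp ChIP. With the titles in place of the descriptions it was 303.

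None of the 4 spots was called at 60 min itself, where the assays lay close together. At R13 - C11 : 2 occupancy fell while run-on stayed near the mean spot. The RNAp ChIP z-scores were 2.16, 1.80 and 2.29 at 0 min, 0.36, 0.28 and 0.04 at 30 min and -0.44, -0.67 and -0.30 at 60 min. The GRO z-scores lay between -0.23 and 0.42 at all times. The difference went from -1.77 over -0.33 to 0.41, a departure of 1.48 (standard error 0.22, adjusted p = 0.0184, limma).

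At R9 - C17 : 8 occupancy rose to meet a run-on level that was high throughout. The GRO z-scores were 2.12, 2.21 and 1.75 at 0 min and 2.04, 1.69 and 1.76 at 60 min, whereas those of RNAp ChIP went from -0.32, 0.03 and -0.65 over 0.93, 1.09 and 1.18 to 2.11, 1.74 and 2.09. All 3 RNAp ChIP values at 60 min lay above those at 30 min, and these above those at 0 min. The difference went from 2.34 over 0.63 to -0.15, a departure of -1.63 (standard error 0.24, adjusted p = 0.0184, limma).

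At R1 - C17 : 6 both assays moved. GRO was at 1.00, 0.98 and 0.70 at 0 min, at -0.25, -0.49 and -0.30 at 30 min and at -0.49, -0.66 and -0.53 at 60 min. RNAp ChIP was at -0.16, -1.54 and -1.22, then at -2.07, -2.17 and -1.72, and then at -0.21, -0.16 and -0.36. Run-on was thus above occupancy at 0 and 30 min and not at 60 min, with a departure of -2.06 (standard error 0.32, adjusted p = 0.0190, limma).

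The remaining spot was high in both assays at 60 min, with GRO at 1.91, 1.93 and 1.96 and RNAp ChIP at 2.02, 2.22 and 2.40. At 30 min RNAp ChIP had been at 0.58, 0.70 and 0.52 and GRO at 1.71, 1.39 and 1.39. Its departure was -1.08 (standard error 0.18, adjusted p = 0.0374, limma). Of these 4 spots, only 1 was called on median-centred log2 ratios and none with the mean denominator of the replicates.

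**Figure D5:**
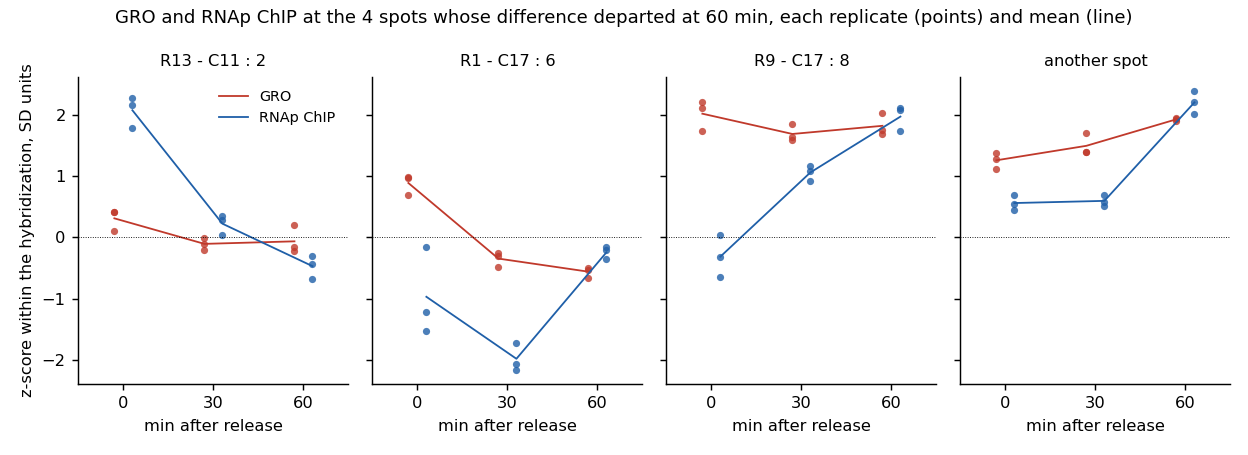
z-scores of GRO (red) and RNAp ChIP (blue) in SD units at the 4 spots with a departure at 60 min, at 0, 30 and 60 min after release. Points are the 3 replicates and lines join their means. The mean differences at 60 min lie between -0.32 and 0.41, after 1.86 and 2.34 at 0 min at R1 - C17 : 6 and R9 - C17 : 8.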

How the data were processed

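The authors deposited, for each hybridization, the background-subtracted intensity of every spot of a nylon macroarray read on a phosphorimager, without normalization between hybridizations. Ligation-mediated PCR of IP and WCE before labelling can change relative amounts. The study's background threshold and rDNA scaling were not applied here, and 0 was taken as missing. No column of values was left unused. Log2 ratios were scaled to z-scores within each hybridization and tested in R 4.3.3 with limma 3.58.1 (lmFit, eBayes), with Benjamini-Hochberg adjustment over all spots and a threshold of 0.05, in a fit of 6 values at 60 min or of 18 values in 6 groups. Neither the labels nor the methods say that equal replicate numbers mark a shared culture, so p-values measure the spread between these hybridizations, and their number limits the precision. The files do not pair array positions with genes. Members, rules and tests were chosen with earlier results of these data known. Named spots were the 2 highest and 2 lowest differences among the calls with all 6 values, no overlap between the assays and denominators outside the dimmest 25% (358 higher and 552 lower spots qualified). For the departure at 60 min, the upward spot and the 2 largest downward spots were named after their values were seen. Alternatives were other scalings, value requirements, denominators, array position corrections, spots left out by brightness, the replicate block and each replicate left out. A loess trend on the denominator and leaving out the brightest 2% of IP were added after the data were seen.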

Additional observations from a re-analysis of the deposited data

Results flagged for a closer look

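At 4 spots the difference between GRO and RNAp ChIP at 60 min departed from its mean over 0 and 30 min by a test of that departure itself (limma, adjusted p below 0.05 over 5642 spots). The departure was 1.48 at R13 - C11 : 2, -2.06 at R1 - C17 : 6, -1.63 at R9 - C17 : 8 and -1.08 at the remaining spot, in z-score units. None of the 4 was called at 60 min itself.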

How the results depend on the processing

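Of 25 alternatives of the count of 1319 spots that differed at 60 min, 19 were within 1.5 times of it and 6 were lower. It was 788 with numerators alone and 821 with the replicate block, and 653 to 1078 with a replicate left out. Replicate numbers were not taken as pairs, because neither the labels nor the methods match them across assays. The methods describe 3 experiments with samples taken for both assays, so cultures may be shared. Deviations of same-numbered replicates of the assays from their group means correlated at -0.0066, -0.0175 and -0.0447 across spots. Such values cannot show whether cultures were shared. With the RNAp ChIP sample whose title names 60 min the count was 1936. Of these 953 were among the 1319 in the same direction and 13 were called in the opposite direction. The 4 named spots stayed called in every setting that held them (25, 25, 24 and 24 settings), and the bright pair was left out without the brightest 2% of genomic DNA. The count of 4 departures became 1 with median-centred log2 ratios, 7 without the dimmest 25%, 2 with the loess trend removed and 303 with the titles, and 0 to 12 with a replicate left out. Of the 4 spots themselves, 0 were called with the mean denominator (3 other spots, all upward), 1 with RNAp ChIP scaled by the slope and 1 with the titles. The count was 0 with quantile normalization (583 at an unadjusted p under 0.05, limma) and 0 with numerators alone (266). The mean correlation of 0.648 between the differences of replicate pairs became 0.767 without the dimmest 25%, 0.5385 without the brightest 2% of genomic DNA, 0.557 without the brightest 2% of IP, 0.783 with the mean denominator, 0.775 with numerators alone and 0.510 with the loess trend removed, and 0.606 to 0.729 with a replicate left out. The causes were not tested, beyond the fewer hybridizations or spots of some settings. Of the 658 higher calls 300 were in the dimmest 25% of a denominator, as were 106 of the 661 lower calls and 1693 of all 5826 spots.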
